A study of Mus musculus with 12 samples.

Results

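The 10 genes described here encode the contractile apparatus of smooth muscle and its main transcriptional coactivator: Acta2, Myh11, Cnn1, Tagln, Myl9, Lmod1, Des, Actg2, Smtn and Myocd. They were chosen by name as established smooth muscle genes of the prostate stroma, with earlier results of these data known. All 10 were present among the 24421 gene symbols of each expression file. After a filter on low values 9 of the 10 remained among 13375 genes tested, and Myocd fell below it. The study profiled total RNA from mouse prostate by RNA sequencing in 12 libraries, to ask how phenethyl isothiocyanate (PEITC, a compound from cruciferous vegetables) in the diet bears on prostate cancer in a transgenic mouse. TRAMP mice of strain C57BL/6-Tg(TRAMP)8247Ng/J carry the SV40 T antigen under a rat probasin promoter, which is active in prostate epithelium and not in the muscle of the stroma. They were given AIN93M control diet or the same diet with 0.05% w/w PEITC and sampled at 16 or 24 weeks of age, with 2 libraries in each of these 4 groups. Nontransgenic C57BL/6 mice on the control diet gave 2 libraries at 24 weeks and 1 library at 16 weeks. These 11 libraries came from ventral and dorsolateral prostate, and the last came from a prostate tumor of unknown lobe in a TRAMP mouse on control diet at 24 weeks. Wild type mice fed PEITC were not analysed here. The number of animals behind a library is not stated, so p-values below measure the spread between these libraries only.

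Smooth muscle cells wrap the prostatic ducts and contract to expel secretion. Force comes from smooth muscle myosin pulling on actin filaments, which are anchored at dense bodies and dense plaques and linked by intermediate filaments. Calcium and calmodulin start contraction by activating myosin light chain kinase, and myosin phosphatase ends it. Transcription of most contractile genes depends on serum response factor, which binds the CArG box, and on its coactivator myocardin, encoded by Myocd.

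RefSeq promoter windows for GRCm38.p6, the same assembly as mm10, were found for 6 of the 10 genes: Acta2, Cnn1, Des, Lmod1, Myl9 and Smtn. Each window ran from 250 bases before the annotated start to 50 bases after it and was searched for the CArG box, which is the same motif on both strands. An exact match lay in the window of 1 of these genes, Myl9, and 2 of them, Myl9 and Acta2, had matches when 1 mismatch in the A/T core was allowed. Over all 32851 windows the shares were 1.63% for the exact motif and 9.98% with 1 core mismatch, and none of these matches was tested for binding here. The 250 bases before the start are shown for both genes because they are the ones with matches, which are in capitals. The Myl9 stretch is chr2:156775214-156775463 on the plus strand, with the exact match 161 bases and the match with 1 core mismatch 99 bases before the start. The Acta2 stretch is chr19:34255374-34255623 on the minus strand, with matches of 1 core mismatch each at 84 and 34 bases before the start.
Myl9: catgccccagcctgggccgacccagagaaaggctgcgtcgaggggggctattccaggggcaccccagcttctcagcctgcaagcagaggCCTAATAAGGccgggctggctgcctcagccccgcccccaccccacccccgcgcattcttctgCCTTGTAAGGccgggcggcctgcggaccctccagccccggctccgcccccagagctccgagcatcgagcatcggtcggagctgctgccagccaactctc
Acta2: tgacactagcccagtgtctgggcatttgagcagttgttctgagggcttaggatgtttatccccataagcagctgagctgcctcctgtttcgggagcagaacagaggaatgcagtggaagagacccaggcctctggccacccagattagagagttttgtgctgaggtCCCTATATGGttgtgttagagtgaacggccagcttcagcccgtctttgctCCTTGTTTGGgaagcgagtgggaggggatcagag
In mm10 coordinates GENCODE places the whole Acta2 gene on chromosome 19 at 34241090 to 34255590, minus strand, and Myl9 on chromosome 2 at 156775420 to 156781658, plus strand. The annotated Acta2 gene therefore begins upstream of the RefSeq start used for the window, and much of the printed stretch lies inside it.

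Values are fragment counts scaled to gene length and to the mapped fragments of the library (FPKM). Levels can thus be compared between genes, and between libraries only as shares of each library. The FPKM of all genes summed to 395678 to 410802 in the TRAMP and tumor libraries and 458256 to 467650 in wild type. From 17113 to 18505 genes were above 0 in a library. Depth in reads is unknown. The tissue label was checked with 8 prostate epithelial markers, whose summed FPKM was 17773 to 20583 in the wild type libraries and 3270 to 6646 in the TRAMP and tumor libraries, and none of the 8 was at 0 in any group. A set of 6 proliferation genes summed to 171 to 241 FPKM in the TRAMP prostates and 195 in the tumor, against 16.1 to 36.0 in wild type. Seminal vesicle transcripts were present in the 16-week wild type library, with 7826 FPKM summed over 8 markers against at most 8.02 in every other library, and both PEITC libraries of 16 weeks were at 0 for all 8. The TRAMP comparison at 16 weeks rests on that single wild type library and is therefore also given against the 24-week wild type libraries.

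All 10 genes were expressed at lower levels in TRAMP prostate than in wild type prostate. Taking the mean of the 24-week wild type libraries as 100%, the median over the 10 genes was 35.2% to 46.3% in 7 of the 8 TRAMP prostate libraries. It was 33.3% in the tumor and 117% in the 16-week wild type library. The eighth TRAMP library, replicate 1 of the 16-week PEITC group, stood apart at 89.3%. It was the highest of the 8 TRAMP libraries for 10 of 10 genes, a position it held for 9.61% of all tested genes. In bulk tissue a smaller share of smooth muscle cells among all cells and less of these RNAs per muscle cell cannot be told apart.

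**Figure D1:**
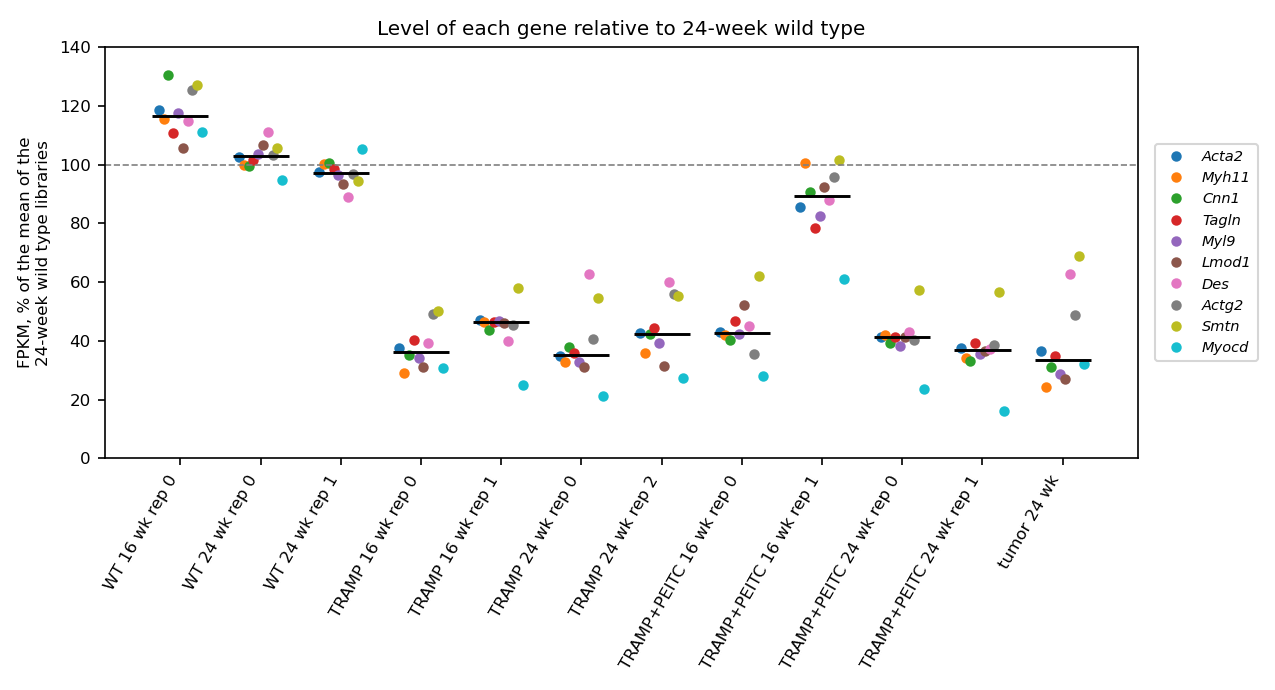
Level of each of the 10 genes in each library as a percentage of its mean in the 24-week wild type libraries (y axis, linear), with black bars at the median over genes. Of the TRAMP libraries, 7 have medians of 35.2% to 46.3%, and replicate 1 of the 16-week PEITC group has 89.3%.

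Without that library, the other 7 TRAMP libraries lay below all 3 wild type libraries for 10 of 10 genes, against 22.1% of all tested genes. It was left out, here and in fits of other groups below, after its high levels of these genes were seen. With it, all 8 lay below wild type for 8 of 10 genes, against 21.3% of tested genes, and the exceptions were Myh11 and Smtn. The tumor lay below all 3 wild type libraries for 10 of 10 genes, against 40.2% of tested genes. The lowest wild type value exceeded the highest of the 7 TRAMP values by 1.41-fold for Des at the least and by 3.07-fold for Myocd at the most.

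**Figure D2:**
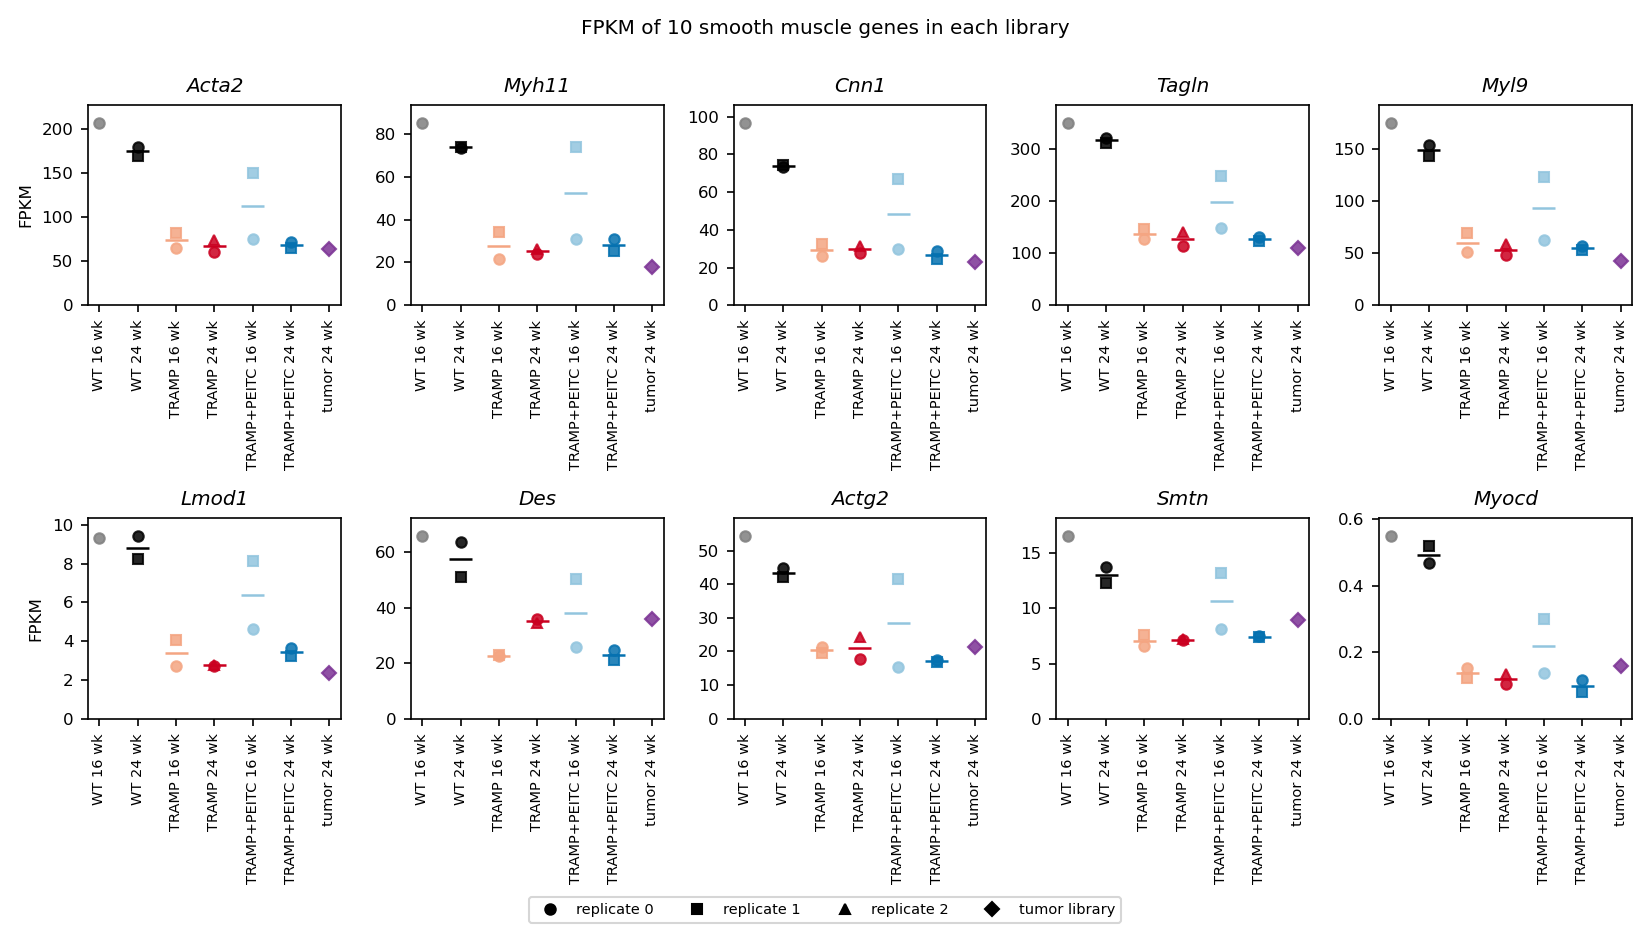
FPKM of each gene (y axes, linear from 0, scaled per gene) in the 12 libraries by group, with horizontal bars at the mean of groups with 2 libraries. The 3 wild type libraries lie above all 8 TRAMP libraries for 8 of 10 genes, and the upper symbol in the 16-week PEITC group is replicate 1.

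Acta2 encodes smooth muscle alpha-actin, the main actin of the contractile filament. Its FPKM was 60.6 and 74.2 in control-diet TRAMP prostate at 24 weeks and 65.6 and 82.1 at 16 weeks. In PEITC-fed TRAMP prostate it was 72.3 and 65.4 at 24 weeks, and 75.0 and 149.6 at 16 weeks. The wild type libraries had 179.4 and 170.0 at 24 weeks and 207.0 at 16 weeks, and the tumor had 64.0. All TRAMP libraries lay below all wild type libraries, and replicate 1 of the 16-week PEITC group came closest to them.

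Myh11 (chromosome 16, 14194535 to 14291372, minus strand) encodes the smooth muscle myosin heavy chain, the motor of contraction. Its FPKM was 24.2 and 26.3 in control-diet TRAMP at 24 weeks, 21.5 and 34.3 at 16 weeks, and 30.9 and 25.3 with PEITC at 24 weeks. With PEITC at 16 weeks it was 30.9 and 74.0. Wild type had 73.6 and 73.9 at 24 weeks and 85.1 at 16 weeks, and the tumor had 17.9, the lowest of the 12 libraries. Replicate 1 of the 16-week PEITC group overlapped the 24-week wild type libraries for this gene. Myl9 encodes the regulatory light chain of the same myosin, whose phosphorylation starts contraction. Its FPKM was 48.8 and 58.6 in control-diet TRAMP at 24 weeks and 51.1 and 69.9 at 16 weeks. PEITC-fed TRAMP had 56.8 and 53.2 at 24 weeks, and 63.3 and 123.3 at 16 weeks. Wild type had 154.5 and 144.2 at 24 weeks and 175.6 at 16 weeks, and the tumor had 42.7. The genotypes did not overlap for Myl9, and the tumor was again the lowest library.

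Tagln (chromosome 9, 45929619 to 45936058, minus strand) encodes transgelin (SM22), an actin-binding protein of smooth muscle, and had the highest FPKM of the 10 genes on average. Its FPKM was 113 and 140 in control-diet TRAMP at 24 weeks and 128 and 147 at 16 weeks. With PEITC it was 130 and 124 at 24 weeks, and 148 and 248 at 16 weeks. Wild type had 321 and 311 at 24 weeks and 350 at 16 weeks, with 110 in the tumor. All TRAMP libraries lay below all wild type libraries. Cnn1 (chromosome 9, 22099216 to 22109630, plus strand) encodes calponin, which binds actin and slows the myosin ATPase. Its FPKM was 28.0 and 31.4 in control-diet TRAMP at 24 weeks and 25.9 and 32.4 at 16 weeks. PEITC-fed TRAMP had 29.1 and 24.6 at 24 weeks, and 29.8 and 67.2 at 16 weeks. Wild type had 73.6 and 74.6 at 24 weeks and 96.8 at 16 weeks, with 23.1 in the tumor, and the genotypes did not overlap.

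Lmod1 (chromosome 1, 135324807 to 135368065, plus strand) encodes leiomodin, which nucleates actin filaments in smooth muscle. Its FPKM was low on this scale, at 2.37 in the tumor and 2.73 to 4.61 in the 7 TRAMP libraries. Wild type ran from 8.23 to 9.42, and replicate 1 of the 16-week PEITC group, at 8.16, lay just under the lowest of these. Actg2 (chromosome 6, 83512905 to 83536265, minus strand) encodes smooth muscle gamma-actin, typical of visceral organs. The 7 TRAMP libraries had 15.4 to 24.2 FPKM, the tumor 21.2 and wild type 42.0 to 54.3. Replicate 1 of the 16-week PEITC group, at 41.6, lay just under the lowest wild type value. Coding sequences of the muscle actins are near identical, and how reads shared between Acta2, Actg2 and the sarcomeric actins were counted is not given in the sources used here, so the split between these genes is uncertain.

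Smtn (chromosome 11, 3517523 to 3540612, minus strand) encodes smoothelin, a structural protein of fully contractile smooth muscle. Its FPKM was 6.56 to 8.11 in the 7 TRAMP libraries, 8.97 in the tumor and 12.3 to 16.6 in wild type. Replicate 1 of the 16-week PEITC group had 13.3, inside the wild type range. The gene-level value sums the long and short smoothelin isoforms, of which the long one is vascular. Myocd (chromosome 11, 65176561 to 65269989, minus strand) was near the bottom of the scale in every library, at 0.0792 to 0.152 FPKM in the 7 TRAMP libraries, 0.301 in replicate 1 of the 16-week PEITC group and 0.158 in the tumor. Wild type had 0.467 and 0.520 at 24 weeks and 0.549 at 16 weeks, and no TRAMP library reached these values.

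Des (chromosome 1, 75360329 to 75368579, plus strand) encodes desmin, the intermediate filament protein of muscle, and departed from the other genes within the TRAMP libraries. Its FPKM was 36.1 and 34.4 in control-diet TRAMP at 24 weeks and 36.0 in the tumor. It was 22.6 and 23.0 in control-diet TRAMP at 16 weeks, 24.8 and 21.3 with PEITC at 24 weeks, and 25.9 and 50.5 with PEITC at 16 weeks. Wild type had 63.9 and 51.1 at 24 weeks and 65.9 at 16 weeks. Apart from replicate 1 of the 16-week PEITC group, the control-diet TRAMP libraries of 24 weeks were thus the highest TRAMP prostate libraries for Des, and all TRAMP libraries remained below wild type.

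By level per length, the order of the means over 12 libraries was Tagln, Acta2, Myl9, Cnn1, Myh11, Des, Actg2, Smtn, Lmod1 and Myocd. In 24-week wild type prostate Cnn1 had 74.1 ± 0.70 FPKM (SD, n = 2) and Myh11 had 73.7 ± 0.21, so these neighbors did not differ beyond their spread. Des followed with 57.5 ± 9.0 and Actg2 with 43.4 ± 1.9. In control-diet TRAMP prostate at 24 weeks the order changed, with Des at 35.3 ± 1.2, Cnn1 at 29.7 ± 2.4 and Myh11 at 25.2 ± 1.5.

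TRAMP and wild type prostate at 24 weeks were compared with limma on log2(FPKM + 1), a scale that understates the change of low genes such as Lmod1 and Smtn. Benjamini-Hochberg adjustment ran over all 13375 genes, and a gene was called at an adjusted p below 0.05. Of the 9 genes tested 7 fell, while 22.0% of all tested genes were called lower. The median log2 fold change of the 9 genes was -1.32, against 0.00 for all tested genes. Tagln fell by 1.32 on the log2 scale (SE 0.21, adjusted p = 0.00184, limma) and Acta2 fell by 1.37 (SE 0.28, adjusted p = 0.00537, limma). Myh11 fell by 1.51 (SE 0.36, adjusted p = 0.0113) and Smtn, the smallest change among those called, fell by 0.78 (SE 0.18, adjusted p = 0.0104), both in limma. Actg2 had a log2 fold change of -1.03 (SE 0.37, limma adjusted p = 0.0519) and Des one of -0.68 (SE 0.26, limma adjusted p = 0.0646), and neither passed. All 12 libraries share 1 estimate of the spread, and without replicate 1 of the 16-week PEITC group 9 of 9 genes were called lower, against 20.4% of tested genes.

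At 16 weeks 9 of 9 tested genes fell in control-diet TRAMP prostate against the single wild type library, where 15.4% of all tested genes were called lower. The median log2 fold change was -1.48, against 0.02 for all tested genes. Cnn1 fell by 1.70 (SE 0.38, limma adjusted p = 0.0114), Myh11 fell by 1.61 (SE 0.44, limma adjusted p = 0.0261) and Des fell by 1.49 (SE 0.32, limma adjusted p = 0.00935). Actg2 fell by 1.36 and lay closest to the threshold (SE 0.45, limma adjusted p = 0.0497). With the 24-week wild type libraries as the control in its place, 8 of 9 genes were called lower, against 20.7% of tested genes, with a median of -1.24, and Actg2 did not pass (limma adjusted p = 0.0520). Of 10 tested skeletal muscle markers 8 also fell at 16 weeks against the single wild type library, as did 3 of 10 endothelial markers. The difference between the genotype effects at 24 and 16 weeks passed for 0 of 9 genes in limma, and 0 had an unadjusted p below 0.05. Des had the largest estimate of that difference, 0.81 on the log2 scale (95% interval -0.14 to 1.76).

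**Figure D3:**
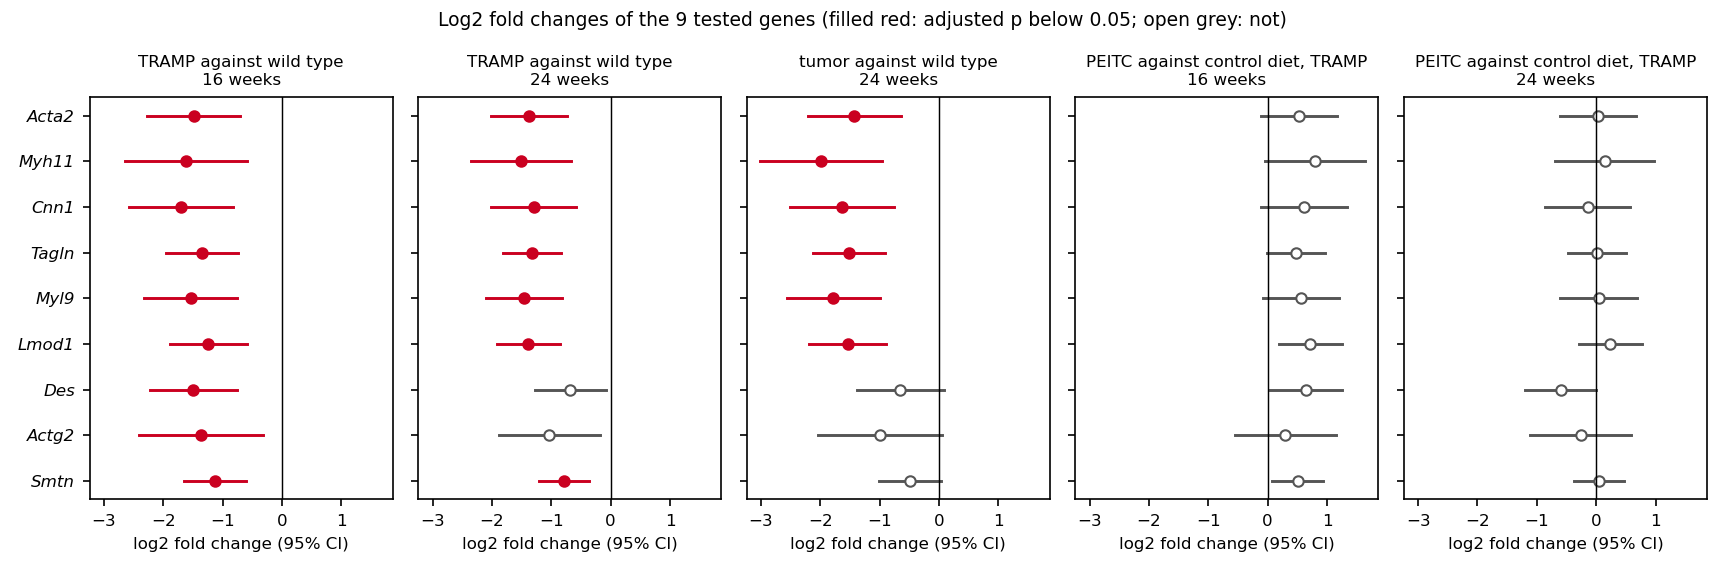
Log2 fold changes on the log2(FPKM + 1) scale (x axes) with 95% intervals from limma for the 9 tested genes in 5 comparisons, filled red where the adjusted p was below 0.05. In TRAMP against wild type 9 genes passed at 16 weeks and 7 at 24 weeks, 6 passed in tumor against wild type, and 0 passed for PEITC at either age.

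PEITC-fed TRAMP prostate at 24 weeks, set against the same wild type libraries as the control-diet group, was lower for 9 of 9 tested genes, where 22.7% of all tested genes were called lower. The log2 fold changes ran from -1.44 for Cnn1 to -0.73 for Smtn, with a median of -1.31 and limma adjusted p-values of 0.00179 to 0.0220. At 16 weeks 1 of 9 genes, Tagln, fell in the PEITC group against the single wild type library (log2 fold change -0.86, SE 0.26, limma adjusted p = 0.0371). In that comparison 15.3% of all tested genes were called lower. The median over the 9 genes was -0.86. With the 24-week wild type libraries as the control, each of the 9 genes kept its direction and side of the threshold in that group. Without replicate 1 of that group 9 of 9 genes were called lower, with a median of -1.43, against 11.6% of tested genes, and without replicate 0 the count was 0. The count in the 16-week PEITC group is thus decided by single libraries.

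The 2 libraries of the 16-week PEITC group were 0.95 apart on the log2 scale in the median of the 9 tested genes. That median exceeded the difference of 99.1% of all tested genes in the same pair. All 10 of 10 genes were more than 1.5-fold higher in replicate 1, and the share of all tested genes past 1.5-fold was not counted. The ratio of replicate 1 to replicate 0 ranged from 1.63 for Smtn and 1.67 for Tagln to 2.40 for Myh11 and 2.70 for Actg2. In the other 4 pairs of replicates the median differed by 0.16, -0.13, 0.31 and -0.09. The largest of these, 0.31, was in control-diet TRAMP at 16 weeks, where Myh11 was 1.60-fold higher in replicate 1 and Actg2 was lower in it at 0.92-fold. Over all tested genes the median absolute difference within a pair was 0.0763 to 0.124.

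PEITC was then compared with control diet in TRAMP prostate. At 24 weeks 0 of 9 genes passed in limma, 0 had an unadjusted p below 0.05, and 0.00% of all tested genes were called in either direction. The largest difference was in Des, with 23.1 ± 2.4 FPKM (SD, n = 2) on PEITC and 35.3 ± 1.2 on control diet, a log2 fold change of -0.60 (95% interval -1.20 to 0.00, limma adjusted p = 0.527). The 4 Des values did not overlap between the diets, but 2 libraries against 2 can separate by chance, so no difference is drawn from this. Acta2 had a log2 fold change of 0.04 (95% interval -0.60 to 0.68) and Tagln one of 0.01 (95% interval -0.48 to 0.50).

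At 16 weeks 0 of 9 genes passed for PEITC against control diet in limma, 3 had an unadjusted p below 0.05 (Des, Lmod1 and Smtn), and 0.00748% of all tested genes were called. The median log2 fold change was 0.56, with 9 of 9 estimates above 0, and Lmod1 had the smallest adjusted p (log2 fold change 0.72, SE 0.23, limma adjusted p = 0.438). Without replicate 1 of the PEITC group the median was 0.11, and 0 genes had an unadjusted p below 0.05. The diet effect at 24 weeks minus that at 16 weeks passed for 0 of 9 genes in limma, where 1 gene, Des, had an unadjusted p below 0.05. The estimate for Des was -1.24 (95% interval -2.09 to -0.39, limma adjusted p = 0.306). Without replicate 1 of the 16-week PEITC group it was -0.77 (95% interval -1.21 to -0.34, limma adjusted p = 0.546).

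Age was compared within each genotype and diet, in wild type with the single 16-week library, which also held seminal vesicle transcripts. Between 16 and 24 weeks 0 of 9 genes passed in control-diet TRAMP, in PEITC-fed TRAMP or in wild type in limma, with 1, 6 and 0 genes at an unadjusted p below 0.05. The shares of all tested genes called were 0.00748%, 0.00% and 0.665%. In PEITC-fed TRAMP the median was -0.63 with all libraries and -0.15 without replicate 1 of the 16-week group, and then 0 genes had an unadjusted p below 0.05. In control-diet TRAMP the gene with an unadjusted p below 0.05 was Des, with a log2 fold change from 16 to 24 weeks of 0.61 (limma adjusted p = 0.291), while the median over the 9 genes was -0.10.

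The tumor was lower than 24-week wild type prostate for 6 of 9 tested genes, where 25.8% of all tested genes were called lower. Myh11 fell by 1.98 on the log2 scale (SE 0.44, limma adjusted p = 0.00673), Myl9 by a log2 fold change of -1.78 (SE 0.34, limma adjusted p = 0.00320) and Cnn1 by one of -1.64 (SE 0.38, limma adjusted p = 0.00786). Des, Smtn and Actg2 had log2 fold changes of -0.65, -0.49 and -1.0 and did not pass with all libraries. Without replicate 1 of the 16-week PEITC group 9 of 9 genes were called lower, against 24.4% of tested genes. Between the tumor and control-diet TRAMP prostate of the same age 0 of 9 genes passed in limma, 0 had an unadjusted p below 0.05, and 11.8% of all tested genes were called in either direction. The tumor is a single library and is assumed to vary as the other groups do.

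Ratios to Acta2 within a library do not depend on how that library was scaled, and they describe how the genes moved against each other. The Tagln to Acta2 ratio stayed within 1.66 to 1.97 over the 12 libraries, the narrowest range, at 1.19-fold from lowest to highest. The Des to Acta2 ratio was 0.596 and 0.464 in control-diet TRAMP at 24 weeks and 0.562 in the tumor, and 0.280 to 0.356 in the other 9 libraries. The Smtn to Acta2 ratio was 0.0886 to 0.118 in the 8 TRAMP libraries and 0.140 in the tumor, all above the 0.0723 to 0.0800 of wild type. The Myocd to Acta2 ratio was 0.00121 to 0.00232 in TRAMP and 0.00260 to 0.00306 in wild type, without overlap, although every Myocd value was under 1 FPKM. The Myl9 to Acta2 ratio was lowest in the tumor, 0.667 against 0.779 to 0.861 in the other libraries.

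The same limma model on log2(FPKM + 1) of each gene minus that of Acta2 called 0 of 104 pairs of gene and comparison. Of these, 0 had an unadjusted p below 0.05. The added 1 keeps these values from being exact log2 ratios of FPKM, most of all for low genes such as Lmod1 and Smtn. In TRAMP against wild type at 24 weeks 90.1% of all genes were called higher relative to Acta2. Every gene in this model carries the noise of Acta2, and moderation across genes then gave 66870 degrees of freedom from 12 libraries, so its p-values are not reliable. A fit with each gene's own spread on 5 residual degrees of freedom, chosen only after the first had called no gene, called 6 of 104 pairs, 1 lower and 5 higher, with 14 at an unadjusted p below 0.05. These were Des and Smtn in TRAMP against wild type at 24 weeks (0.69 and 0.59 relative to Acta2), Smtn in PEITC-fed TRAMP at 24 weeks (0.60), and Des, Smtn and Myl9 in the tumor (0.78, 0.94 and -0.35). In that fit 82.2% of all genes were called higher relative to Acta2 in TRAMP against wild type at 24 weeks, and so were 79.2% in PEITC-fed TRAMP at that age. In the tumor 51.6% were called higher and 0.329% lower. The count was 0 in 6 of the 10 fits that leave out 1 library. The Des and Smtn ratios are therefore given as measured values, with no call.

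**Figure D4:**
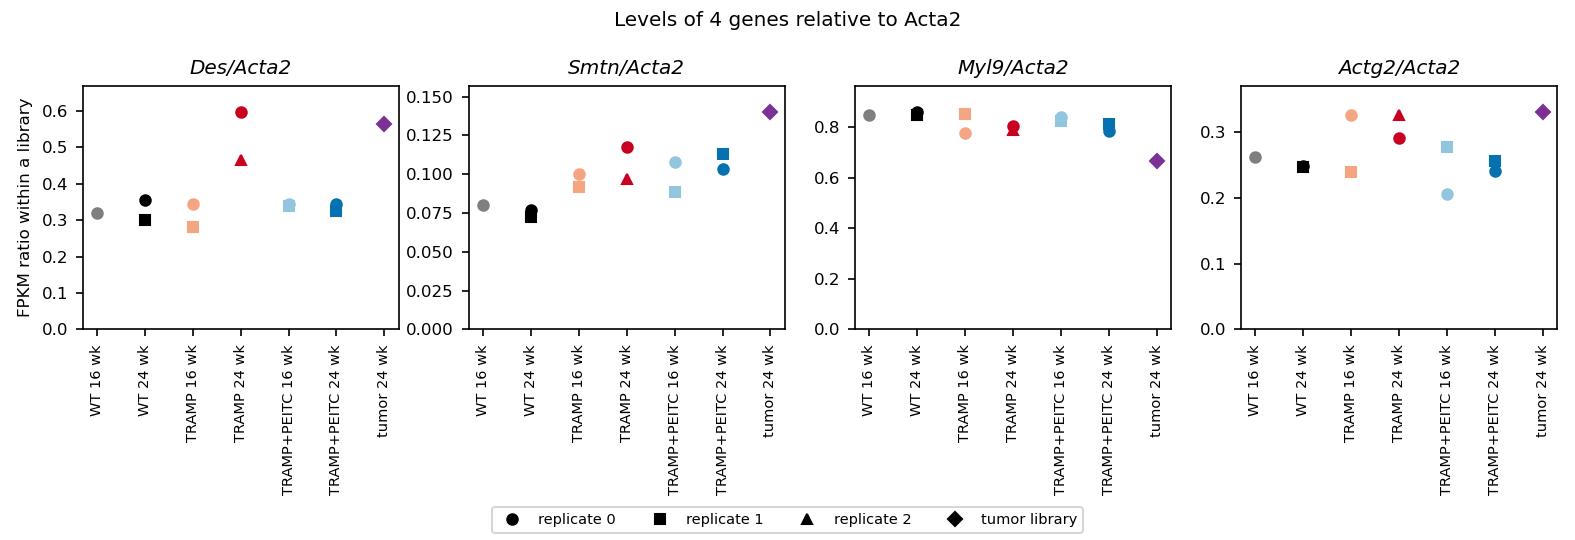
FPKM of Des, Smtn, Myl9 and Actg2 divided by the FPKM of Acta2 in the same library (y axes, linear from 0), by group, with 1 symbol for each library. The Des ratio is 0.464 to 0.596 in control-diet TRAMP at 24 weeks and in the tumor and 0.280 to 0.356 elsewhere.

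Partners of the 10 genes were taken from 7 lists covering myosin regulation, thin filaments, dense plaques, calcium and potassium handling, contraction receptors, the cGMP relaxation pathway and transcription regulators. Of 53 genes in these lists 42 were tested, and in TRAMP against wild type at 24 weeks 21 fell and 3 rose, where 22.0% of all tested genes were called lower and 23.0% higher. Their median log2 fold change was -0.31, against 0.00 for all tested genes. At 16 weeks, against the single wild type library, 20 fell and 2, Adra1a and Itpr1, rose. In that comparison 15.4% of all tested genes were called lower and 18.1% higher. Among 9 genes of myosin regulation 4 fell: Mylk, the myosin light chain kinase, by 1.28 (SE 0.27), Ppp1r14a, an inhibitor of myosin phosphatase, by 0.80, Myl6, the essential light chain, by 0.38, and Ppp1r12a, the phosphatase targeting subunit, by 0.30 on the log2 scale. The kinases Rock1 and Rock2 did not pass, with log2 fold changes of -0.05 and 0.02.

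Of 8 genes of thin filaments and actin binding 5 fell, among them Tpm2, a tropomyosin, with a log2 fold change of -1.24, the actin-bundling protein gene Synpo2 with -1.02, Cald1, which encodes caldesmon, with -0.92, and Flna, a filamin, with -0.71. Of 10 genes of dense plaques and intermediate filaments 6 fell and 1 rose. Those that fell included Pgm5 (-1.34), the actin-associated LIM protein gene Pdlim3 (-1.17), the integrin chain Itga8 (-0.98) and the intermediate filament protein Synm (-0.94). The gene that rose was Nexn, an actin-binding protein, named here after its value was seen, with a log2 fold change of 0.84. Of 5 tested genes of calcium and potassium handling 4 fell: the junctophilin gene Jph2 (-1.17), Mrvi1, a substrate of cGMP kinase at calcium stores (-0.75), the calsequestrin gene Casq2 (-0.74) and the large-conductance potassium channel Kcnma1 (-0.35).

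Of 8 receptors that drive contraction 4 were tested, and 1 rose, 1 fell and 2 did not pass at 24 weeks. Those that did not pass were Ednra and Ednrb, the endothelin receptors, at -0.01 and 0.80. Of all tested genes 23.0% were called higher and 22.0% lower, so these counts do not set the receptors apart. Adra1a encodes the alpha-1A adrenergic receptor, which mediates sympathetic contraction of the prostate. Its FPKM was 6.26 to 8.93 in the 8 TRAMP libraries and 9.0 in the tumor, and 0.999 to 1.59 in the 3 wild type libraries, without overlap. It rose by 2.04 on the log2 scale at 24 weeks (SE 0.13, limma adjusted p = 2.60e-05). Chrm3 encodes the M3 muscarinic receptor, and its FPKM was 2.29 to 4.10 in TRAMP, 1.30 in the tumor and 7.93 to 8.83 in wild type, with a log2 fold change of -1.21 at 24 weeks. Replicate 1 of the 16-week PEITC group lay among the other TRAMP libraries for both Adra1a, at 7.54, and Chrm3, at 3.56. This was unlike its levels of the 10 contractile genes.

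In the cGMP pathway 1 of 2 tested genes fell, Pde5a, the phosphodiesterase that degrades cGMP, with a log2 fold change of -0.32. Of 4 tested transcription regulators 1 rose, Klf4, a repressor of contractile genes in cultured smooth muscle, with a log2 fold change of 0.38. Srf, Mkl1 and Mkl2, which encode serum response factor and its myocardin-related coactivators, had log2 fold changes of -0.10, 0.13 and 0.06 and did not pass. Of 9 tested non-muscle or other-muscle counterparts of the 10 genes 2 fell and 2 rose at 24 weeks. Of all tested genes 22.0% were called lower and 23.0% higher, so the counts for regulators and counterparts set neither list apart. The skeletal alpha-actin gene Acta1 (-1.31) and the non-muscle myosin gene Myh10 (-0.47) fell. The broadly expressed transgelin gene Tagln2 (1.06) and Smtnl2 (0.76) rose. The ratio of Tagln to its non-muscle paralog Tagln2 was 0.727 to 1.62 in TRAMP, 0.281 in the tumor and 3.54 to 4.41 in wild type.

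Across the 12 libraries, the genes most like the mean standardized profile of the 9 tested genes were ranked by Pearson correlation, as a description over libraries that share genotype and 1 outlying library. The 8 most alike were Tpm2 (r = 0.991), Fbxl22 (0.990), Mylk (0.989), Jph2 (0.988), Mrvi1 (0.986), Csrp1 (0.984), Dmpk (0.979) and Synpo2 (0.977). Of the 9 genes themselves Acta2 was closest to the mean profile (0.997) and Des the farthest (0.891). Tpm2, for example, had 47.1 FPKM in replicate 1 of the 16-week PEITC group and 24.0 in replicate 0.

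Markers of the other cells of the tissue were read beside these results. The 12 fibroblast markers summed to 103 to 300 FPKM in TRAMP, 213 in the tumor and 163 to 232 in wild type, and 0 of 12 passed in TRAMP against wild type at 24 weeks in limma, with 0 at an unadjusted p below 0.05 and a median log2 fold change of 0.46. At 16 weeks 0 of 12 passed and 0 had an unadjusted p below 0.05, with a median of -0.07. In TRAMP against wild type at 24 weeks 1 of 10 endothelial markers fell, the endoglin gene Eng (-0.67), where 22.0% of all tested genes were called lower. Of 5 tested pericyte markers 1 rose, the receptor gene Notch3 (0.46), where 23.0% of all tested genes were called higher. At 16 weeks 3 of 10 endothelial markers fell, Eng (-1.28), Emcn (-0.87) and Esam (-0.76), where 15.4% of all tested genes were called lower. All 10 endothelial estimates were below 0 with a median of -0.39, and 0 of 5 pericyte markers passed. In the tumor against wild type 7 of 10 endothelial markers rose, where 26.4% of all tested genes were called higher. These genes were named after their values were seen. The endothelial sum was 9.48 to 20.4 FPKM in TRAMP, 41.9 in the tumor and 17.2 to 26.4 in wild type.

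Leukocyte markers were higher in TRAMP libraries, while the contractile genes were lower. Their 6 genes summed to 34.6 to 113 FPKM in the 8 TRAMP libraries, 92.5 in the tumor and 21.1 to 22.7 in wild type, without overlap, and none of the 6 was at 0 in any library. In TRAMP against wild type at 24 weeks 5 of 6 rose, where 23.0% of all tested genes were called higher, with a median log2 fold change of 1.25. Among them were the macrophage genes C1qb (1.92), Cd68 (1.42) and Adgre1 (1.26), and Cd3e of T cells did not pass (0.61). At 16 weeks 0 of 6 passed in limma, 2 had an unadjusted p below 0.05, and the median was 0.86. In the 16-week PEITC group the sum was 46.1 in replicate 0 and 55.5 in replicate 1. The part of leukocyte content in the levels of the 10 genes was not tested. Of 5 tested adipocyte markers 0 passed in limma in TRAMP against wild type at either age, with 0 at an unadjusted p below 0.05, and their sum varied from 2.07 to 187 FPKM in TRAMP and from 0.483 to 38.0 in wild type.

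Within pairs of replicates, the fibroblast sum and the sum of the 10 genes were higher in the same library in 3 of 5 pairs and in opposite libraries in 2. In control-diet TRAMP at 16 weeks the fibroblast sum was 292 in replicate 0 and 113 in replicate 1, while the sum of the 10 genes was 345 and 420. In the 16-week PEITC group the fibroblast sum was 103 in replicate 0 and 206 in replicate 1, the endothelial sum 9.48 and 14.8, and the sum of the 10 genes 401 and 776. The share of tissue or cell types sampled in that library was not tested.

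Of 12 skeletal muscle markers 10 were tested. In TRAMP against wild type at 24 weeks 4 fell (Acta1, Tnnc2, Myh2 and Actn3) and 1, Mylpf, rose. In that comparison 22.0% of all tested genes were called lower and 23.0% higher. At 16 weeks 8 of 10 fell against the single wild type library, where 15.4% of all tested genes were called lower. All 10 markers then had estimates below 0, with a median of -1.68. Their sum was 24.2 to 56.5 FPKM in TRAMP, 32.1 in the tumor, 54.5 and 55.9 in 24-week wild type and 138 in 16-week wild type. In the 16-week PEITC group it was 24.7 in replicate 0 and 56.5 in replicate 1. Acta1 and Tnnc2 made up most of the rise, with 29.8 and 17.9 FPKM in replicate 1 against 11.7 and 6.85 in replicate 0, while Myh4, a myosin of fast skeletal fibers, was 0.0364 against 0. In the 16-week wild type library Myh4 was 2.77 and Ckm, the muscle creatine kinase, 3.90, the highest of the 12 libraries for both. That library also had 7826 FPKM summed over the 8 seminal vesicle markers. The parts of skeletal muscle and of seminal vesicle in its levels of the 10 genes were not tested.

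**Figure D5:**
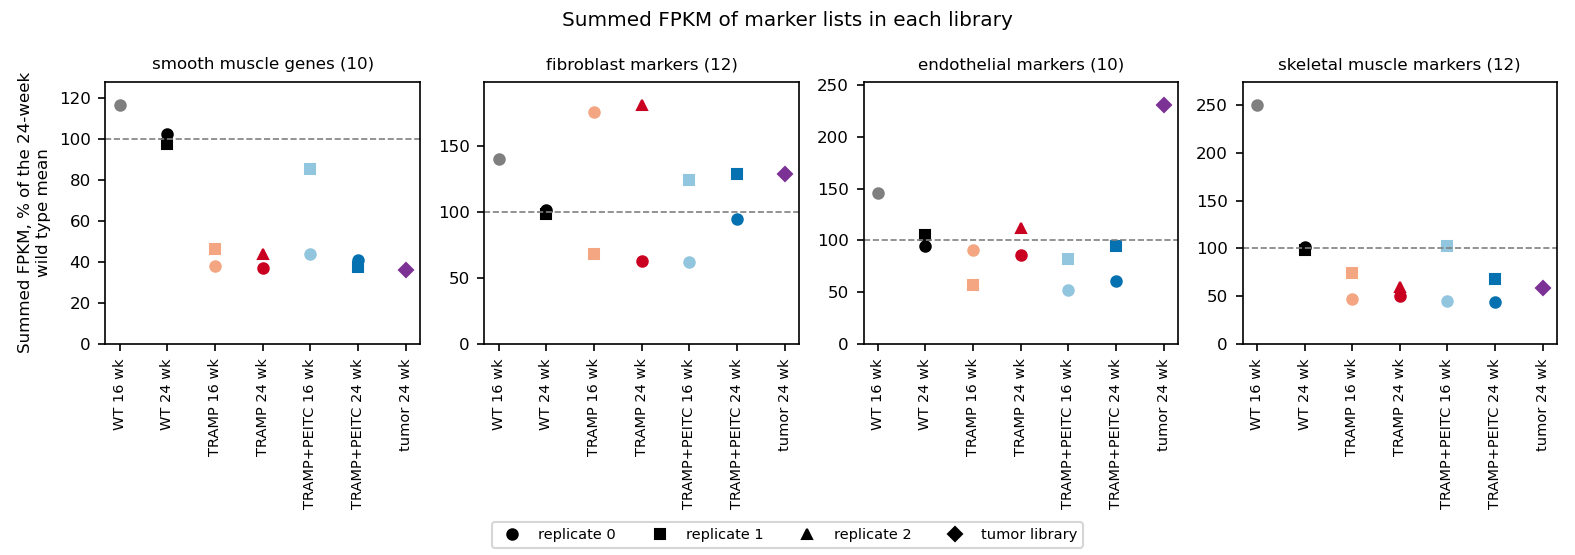
Summed FPKM of the 10 genes and of 3 marker lists in each library as a percentage of the mean of the 24-week wild type libraries (y axes, linear from 0). The sum of the 10 genes separates wild type from TRAMP, while the fibroblast sums of the genotypes overlap, at 103 to 300 FPKM in TRAMP and 163 to 232 in wild type.

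For Myocd, which the filter on low values left out, a fit without that filter over 20788 genes gave log2 fold changes of -0.42 in TRAMP against wild type at 24 weeks (limma adjusted p = 0.00394), -0.45 at 16 weeks (limma adjusted p = 0.00812) and -0.37 in the tumor (limma adjusted p = 0.0104). That fit called 14.3%, 13.0% and 17.2% of its genes lower in these comparisons. At these levels log2(FPKM + 1) holds the fold change close to 0 whatever the ratio, which was 21.1% and 27.4% of the 24-week wild type mean in the control-diet TRAMP libraries of that age.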

How the data were processed

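The deposited files give 1 FPKM value per gene and library, 12 libraries in all, computed by the authors. Tools listed in the submitters' processing notes are DESeq2, featureCounts, HISAT2 and Picard, with no versions or order given, and the build is mm10. How FPKM was made from them, and how reads shared between genes were counted, is not given in the sources used here. Groups came from the sample titles. Levels were tested as log2(FPKM + 1) in 1 limma fit (limma 3.58.1, R 4.3.3, intensity trend, 7 group means, 5 residual degrees of freedom) over the 13375 genes whose mean over the libraries reached 0.5 FPKM, with Benjamini-Hochberg adjustment and a threshold of 0.05, for 13 comparisons. The fit was tested on simulated data. The authors' own scaling was kept. Text names all 10 genes, up to 4 called genes of each partner list with the largest change at 24 weeks, and the 8 most alike genes. Members and lists were chosen with earlier results of these data known. The fit relative to Acta2 with each gene's own spread, and leaving out replicate 1 of the 16-week PEITC group from every comparison, were chosen after seeing the data. Positions are from GENCODE M21 and promoters from RefSeq, and 95.7% of the 24421 symbols matched GENCODE. Figures used Python 3.11.15 and matplotlib 3.10.9. Depth is unknown, so no counting interval is given.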

Additional observations from a re-analysis of the deposited data

How the results depend on the processing

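Of 1566 alternative log2 fold changes of single genes, 1473 kept direction and side of the threshold, 35 no longer passed, 20 newly passed and 38 turned direction, all 38 for values that had not passed. Counts of called genes stayed within 1.5 times under other pseudocounts, filters, scalings and no intensity trend, except as follows. In the PEITC group against wild type at 16 weeks the count of 1 became 0 with scaling over all but the top 50 genes, 0 with only the groups compared, and 0 to 9 without 1 library. Member change relative to Acta2, called for 0 pairs, was called for 1 with a pseudocount of 5, 4 without the filter, 2 with Myh11 as the reference, 8 with only the groups compared, 0 to 8 without 1 library, and 6 with each gene's own spread. The 4 pairs called without the filter were all higher, with the smallest adjusted p for Myocd in TRAMP against wild type at 24 weeks. Its FPKM ratio to Acta2 was lower in TRAMP, without overlap. At Myocd levels log2(FPKM + 1) stays close to 0, so that call does not show a rise of Myocd against Acta2. The cause of these changes in count was not tested. Without 1 library the count was 5 to 9 in control-diet TRAMP against wild type at 24 weeks and 6 to 9 at 16 weeks, and 6 to 9 for the PEITC group at 24 weeks and the tumor against wild type. Scaling over all but the top 50 genes by FPKM moved the median of all genes by 0.10 in TRAMP against wild type at 16 weeks and by 0.11 in the PEITC groups against wild type at both ages, and the medians of the 9 genes were then -1.36 at 16 weeks and, with PEITC, -1.18 at 24 and -0.73 at 16 weeks.

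The log2 fold changes that turned direction without 1 library ranged as follows. In PEITC against control diet at 24 weeks they ran from -0.11 to 0.18 for Acta2, -0.14 to 0.17 for Tagln, -0.091 to 0.17 for Myl9. In 24 against 16 weeks in control-diet TRAMP they ran from -0.29 to 0.033 for Acta2, -0.28 to 0.034 for Tagln, -0.13 to 0.19 for Cnn1, -0.20 to 0.23 for Actg2, -0.069 to 0.11 for Smtn, -0.43 to 0.22 for Myh11, -0.38 to 0.066 for Myl9, -0.44 to 0.0079 for Lmod1. In the tumor against TRAMP they ran from -0.19 to 0.25 for Actg2, -0.21 to 0.077 for Acta2, -0.0052 to 0.063 for Des. In the genotype effect at 24 minus 16 weeks they ran from -0.042 to 0.28 for Acta2, -0.13 to 0.18 for Tagln, -0.15 to 0.30 for Myl9, -0.22 to 0.43 for Myh11, -0.36 to 0.081 for Lmod1. In PEITC against control diet at 16 weeks they ran from -0.39 to 0.99 for Actg2. In 24 against 16 weeks in PEITC-fed TRAMP they ran from -1.23 to 0.14 for Actg2. In the diet effect at 24 minus 16 weeks they ran from -0.98 to 0.0031 for Acta2, -1.25 to 0.12 for Actg2. In 24 against 16 weeks in wild type they ran from -0.16 to 0.014 for Lmod1. Depth is unknown, so low genes such as Myocd have no counting error here.

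Replicate numbers do not pair the samples: deviations of same-numbered libraries correlated at -0.310 to 0.282 over 6 pairs of groups. With the number as a block, 4 genes were called in TRAMP against wild type at 24 weeks and 2 in the PEITC group at 16 weeks. The block turned Smtn to -0.029 for PEITC at 24 weeks, Myh11 to 0.039 and Actg2 to -0.062 for age in control-diet TRAMP, and Lmod1 to 0.061 for the genotype effect at 24 minus 16 weeks. The tumor carries no number and was not fitted with a block.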
